A study of Mus musculus with 8 samples.

Results

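Lipoprotein handling was followed through 6 genes, Apoc3, Apoe, Apod, Apoc1, Pltp and Lrp1, of 18193 genes that the arrays measured under a single name. The genes were taken by symbol, and the set was drawn up because Apoc3 stood far higher in the dexamethasone model. Comparisons with that model therefore describe these 6 genes and carry no test, whereas the comparison of the TNF model with the chronic insulin model was tested. All 6 had a named probe set, and Apod, Pltp and Lrp1 each had 1 further probe set that served as a check. The cells were adipocytes of 3T3-L1, a line of mouse fibroblasts that turns into fat cells in culture, and labelled cRNA made from their total RNA was measured on Affymetrix whole-genome arrays. They had been made insulin resistant by chronic insulin (CI, 2 arrays), by the inflammatory cytokine tumour necrosis factor (TNF, 3 arrays) or by dexamethasone, a synthetic glucocorticoid (Dex, 3 arrays), and all 8 samples received the antioxidant MnTBAP during the last 6 hours. Cells without MnTBAP and cells without an insulin resistance treatment were not analysed here, so each level is only relative to the other models. Whether replicate arrays came from separate cultures is not stated, so each p-value rests on the spread between arrays, which may be technical. The doses of the treatments are not given in the sources used here.

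Apolipoproteins are the protein coats of lipoproteins, the particles that carry cholesterol and triglyceride in the circulation. They hold the particle together, switch lipoprotein lipase on or off, and serve as ligands for the receptors that clear remnants. Phospholipid transfer protein, the product of Pltp, moves lipid between particles, and Lrp1 is a large endocytic receptor that takes up remnants carrying apolipoprotein E. Fat cells are not the main site of most apolipoproteins, which come from liver and intestine, but they are known to make apolipoprotein E and the proteins that act on particles at the vessel wall.

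The arrays carried the responses that their labels name. All 5 glucocorticoid-induced genes examined were called higher in Dex than in CI, among them Fkbp5 by 2.96 ± 0.08, and all 5 inflammatory genes were called higher in TNF than in CI, among them the acute phase gene Saa3 by 5.19 ± 0.11. The 8 arrays had median intensities between 124.7 and 130.97. Adipoq, the adiponectin gene that marks fat cells, had mean levels of 14.36 in CI, 14.31 in TNF and 14.37 in Dex, near the top of the scale, where differences can be compressed. Of the 10 adipocyte markers 8 were measured, and their summed intensity was 83457 to 83901 in CI, 82243 to 85625 in Dex and 65300 to 67842 in TNF. The brightest markers dominate these sums, and 3 of the 8 (Slc2a4, Lep and Aqp7) were called lower in Dex than in CI and 5 of the 8 lower in TNF than in CI. Among all genes 5.67% were called lower in Dex than in CI and 5.23% lower in TNF than in CI. Lep was low on all 8 arrays, in the range of the receptor probe sets described below, so its fall is uncertain. Levels are given as log2 intensities. A difference between models is a difference of mean log2 intensities, with its standard error (SE) from 1 limma fit over the 8 arrays. A gene is called where the Benjamini-Hochberg adjusted p is under 0.05 and the difference is over 0.5 in size. Fewer cells making a transcript and less transcript per cell cannot be told apart in these samples.

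Apoc3 encodes apolipoprotein C-III, which restrains lipoprotein lipase and slows the uptake of remnants, and is made chiefly by hepatocytes. Its log2 intensity was 11.76, 12.12 and 12.09 in Dex. It was 6.95 and 6.93 in CI, and 6.32, 7.01 and 6.02 in TNF. The Dex arrays formed a group of their own, with nothing between 7.01 and 11.76, while TNF enclosed CI. The measured means lay 5.05 ± 0.22 (SE) higher in Dex than in CI and 5.55 ± 0.20 higher than in TNF, which are the values that chose the set.

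Levels in CI and TNF were in the range of probe sets for genes that fat cells are not known to use. On each array 80 probe sets for odour and pheromone receptors stood in for such genes. Their median was 5.65 to 5.85 and their 95th percentile 7.40 to 7.64, and Apoc3 lay at or under that percentile on all 5 CI and TNF arrays. Its level without dexamethasone cannot be told from this background, so the differences above are not exact sizes. Taken against the mean of that percentile, Apoc3 in Dex lay at least 4.54 higher on the log2 scale than in CI and at least 4.39 higher than in TNF. TNF and CI differed by -0.50 ± 0.22 (95% interval -0.98 to -0.0089) and this did not pass (limma adjusted p = 0.135). Without TNF replicate 2, the highest TNF array at 7.01, the difference was -0.78 and was called (limma adjusted p = 0.00291). Without TNF replicate 3, the lowest, it was -0.28 and was not called. All these levels are in the receptor range, so no change of Apoc3 between TNF and CI is read from them.

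**Figure D1:**
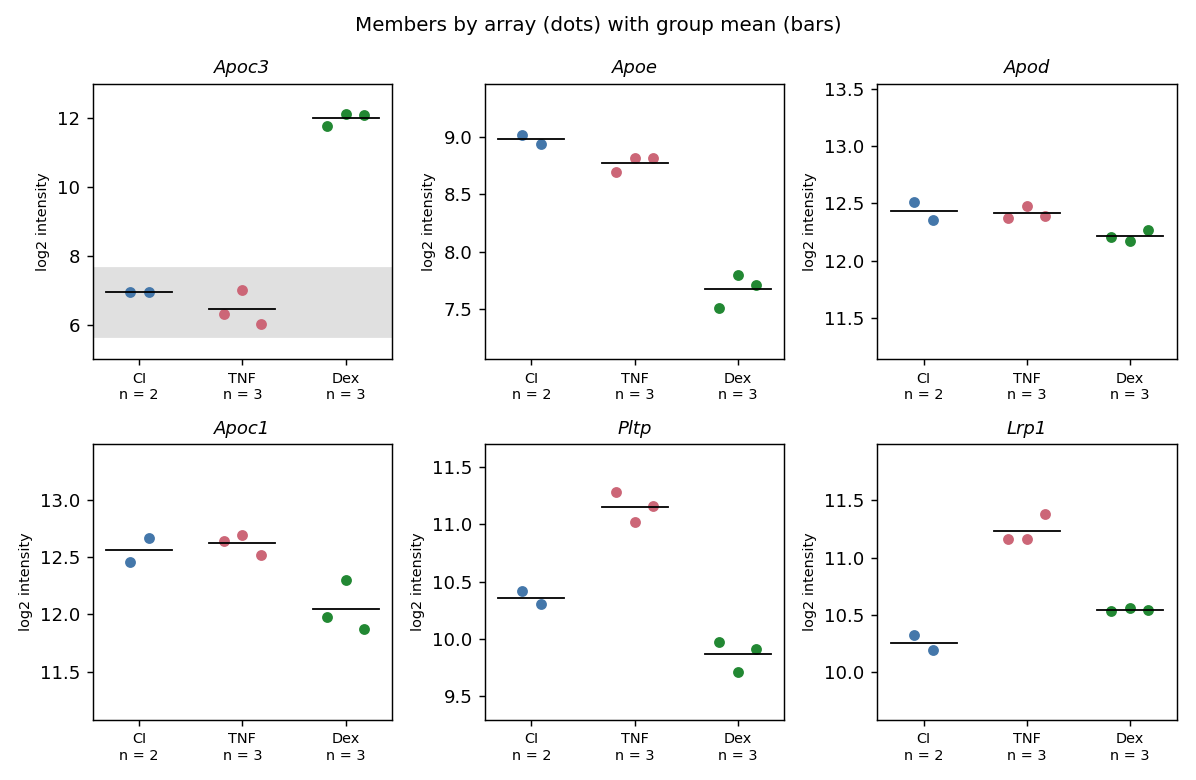
Log2 intensity (vertical axis, a different range for each gene) of the 6 genes on each array (dots), grouped by model, with a bar at the model's mean; the grey band under Apoc3 runs from the lowest median to the highest 95th percentile of the receptor probe sets on the 8 arrays. Apoc3 reached 11.76 to 12.12 in Dex and stayed inside the band in CI and TNF. Apoe, Apoc1, Pltp and, by a small margin, Apod were lowest in Dex, and Pltp and Lrp1 were highest in TNF.

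Apoc3 is one of a row of apolipoprotein genes on mouse chromosome 9, which in the RefSeq table for GRCm38.p6 are Apoa1, Apoc3, Apoa4 and Apoa5. Apoc3 occupies chr9:46233050-46235636. It starts 2580 bases beyond Apoa1, the gene of the main protein of high density lipoprotein, and ends 5207 bases before Apoa4, which encodes an intestinal apolipoprotein. Apoa4 was 7.02 to 7.62 in Dex, 6.52 and 6.64 in CI, and 6.63 to 6.70 in TNF, without overlap between Dex and the other models. Apoa4 was higher in Dex by 0.79 ± 0.14 against CI (limma adjusted p = 0.00183) and lower in TNF than in Dex by 0.71 ± 0.12 (limma adjusted p = 0.00175). Its level was at or under the receptor percentile on 7 of the 8 arrays, and its probe set is of a kind that can share probes with other transcripts. The size of this rise is therefore uncertain.

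Apoa1 and Apoa5 were not called in any comparison. Apoa1 was 7.44 to 7.55 in Dex, 7.28 and 7.33 in CI, and 7.22 to 7.32 in TNF, at or under the receptor percentile on 7 of 8 arrays. Apoa5, which activates lipoprotein lipase, differed between Dex and CI by 0.11 ± 0.09 (95% interval -0.09 to 0.30, limma adjusted p = 0.452).

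**Figure D2:**
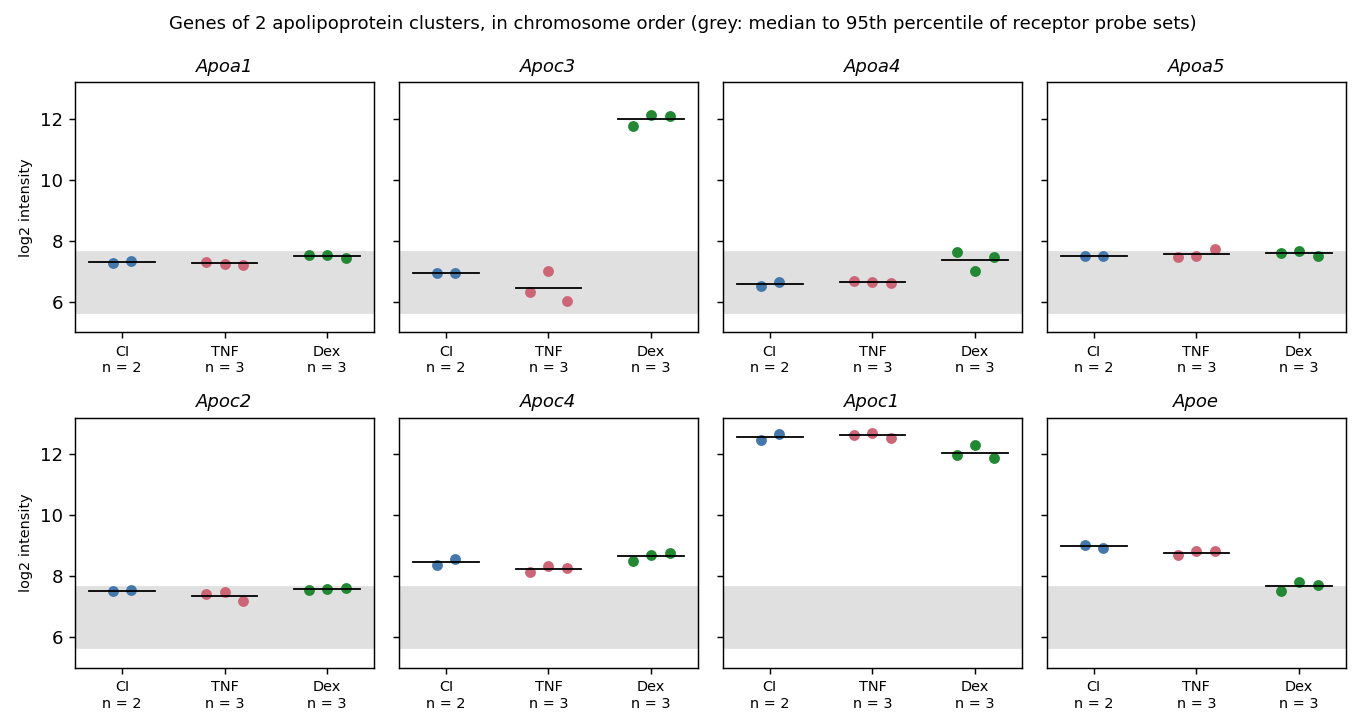
Log2 intensity (vertical axis) on each array (dots, with a bar at the model's mean) of the apolipoprotein genes of chromosome 9 (upper row) and chromosome 7 (lower row), in their order on the chromosome. The grey band runs from the lowest median to the highest 95th percentile of the odour and pheromone receptor probe sets; Apoc3 in Dex lies far above it, Apoa1, Apoa4, Apoa5 and Apoc2 lie within it or at its upper edge, and Apoc1 lies above it in every model.

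Markers of hepatocytes, the cells that make most apolipoprotein C-III, were read beside Apoc3, and none was called higher in Dex than in CI by limma. As the cultures were of a fibroblast line, these markers describe genes and say nothing of the source of Apoc3. All 14 listed markers were measured, and 11 were at or under the receptor percentile on all 8 arrays, among them albumin (Alb) and the fibrinogen genes Fga, Fgb and Fgg. Their summed intensity was 1470 to 1580 in Dex against 1813 to 1871 in CI and 4020 to 4637 in TNF. The brightest markers dominate these sums. The single marker called was Hpx, which encodes the haem carrier hemopexin. It was lower in Dex than in CI by 1.56 ± 0.12 (limma adjusted p = 5.2e-06), a size that is uncertain because Hpx was at or under the receptor percentile on 3 arrays, and higher in TNF than in CI by 2.65 ± 0.12 (limma adjusted p = 2.69e-07).

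The genes whose levels followed Apoc3 most closely over the 8 arrays were Gm11827 (Pearson r = 0.9985), Agt (r = 0.9975) and Cyp2e1 (r = 0.996), out of 18192 other genes. Agt encodes angiotensinogen, the precursor of angiotensin, and Cyp2e1 a cytochrome P450. Mean levels in CI, TNF and Dex were 11.67, 11.48 and 13.88 for Agt, and 9.21, 9.08 and 13.50 for Cyp2e1. For Gm11827 they were 6.54, 6.36 and 8.15, in the receptor range in CI and TNF. These correlations describe 8 arrays that share 3 treatments, and any gene that sets Dex apart scores high.

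Apoe and Apoc1 are neighbours on chromosome 7, in the order Apoc2, Apoc4, Apoc1 and Apoe, with 3584 bases between Apoc1 and Apoe. Apoe encodes a ligand through which remnants bind Lrp1 and other clearance receptors. It was 7.51, 7.80 and 7.71 in Dex, 8.70, 8.82 and 8.82 in TNF, and 9.02 and 8.94 in CI. The 3 models did not overlap, and Dex was lowest. The mean lay lower in Dex than in CI by 1.31 ± 0.09, which is 2.47-fold, and higher in TNF than in Dex by 1.10 ± 0.08. The Dex levels were close to the receptor percentile, and 1 of the 3 arrays was at or under it, so the size of this difference may be understated.

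TNF and CI differed for Apoe by -0.20 ± 0.09 (95% interval -0.41 to -0.00029), which did not pass (limma adjusted p = 0.141), although all 3 TNF arrays lay under both CI arrays. Among all genes 53.0% were without overlap between TNF and CI. Apoe was measured by a probe set of the kind that reads several transcripts of 1 gene. The genes closest to Apoe over the 8 arrays were Islr (r = 0.9961), Triqk (r = 0.9881) and Tmem35b (r = 0.9878).

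Apoc1 encodes a small apolipoprotein of very low and high density particles that hinders lipase action and remnant uptake. It was 11.98, 12.30 and 11.87 in Dex, 12.64, 12.69 and 12.52 in TNF, and 12.45 and 12.67 in CI. TNF and CI overlapped, and every Dex array lay below them. The mean lay lower in Dex than in CI by 0.51 ± 0.12, barely past the threshold of 0.5, and higher in TNF than in Dex by 0.57 ± 0.11. The difference between Dex and CI was -0.40 without CI replicate 2, -0.48 without Dex replicate 1 and -0.42 without Dex replicate 3, and -0.48 after quantile normalization, in each case under the threshold. The difference between TNF and Dex was 0.48 without Dex replicate 3. TNF and CI differed by 0.06 ± 0.12 (95% interval -0.21 to 0.32, limma adjusted p = 0.765). Most like Apoc1 over the 8 arrays were Arf4 (r = 0.9779), Ephb3 (r = 0.9725) and Btbd9 (r = 0.9655).

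The means of Apoc4 and Apoc2, the other genes of the row on chromosome 7, did not lie lower in Dex. Apoc4 was 8.52 to 8.77 in Dex against 8.36 and 8.58 in CI and 8.13 to 8.35 in TNF. Its difference between TNF and Dex was -0.42 ± 0.09 (limma adjusted p = 0.00732), short of the size threshold and opposite in sign to those of Apoe and Apoc1. Apoc2, whose product switches lipoprotein lipase on, was 7.53 to 7.60 in Dex, 7.53 and 7.54 in CI, and 7.17 to 7.50 in TNF, and was not called in any comparison.

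The RefSeq promoter table for GRCm38.p6 held windows for Apoe, Apod, Pltp and Lrp1, and not for Apoc3 and Apoc1. The bases before the start site are shown for Apoe, the gene that was lowest in Dex by the widest margin, so that the motif search can be read against the letters. Of 3 Apoe windows in the table this is the one furthest upstream, chr7:19699189-19699438 on the minus strand, inside the span that RefSeq gives the gene (chr7:19696244-19701310). None of the Apoe windows covers the bases before that span. The window shown was the only Apoe window in which the motif search found a match. Capitals mark the hexamer AGAACA of the glucocorticoid receptor, found at positions -226 to -221 from the start.

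Apoe: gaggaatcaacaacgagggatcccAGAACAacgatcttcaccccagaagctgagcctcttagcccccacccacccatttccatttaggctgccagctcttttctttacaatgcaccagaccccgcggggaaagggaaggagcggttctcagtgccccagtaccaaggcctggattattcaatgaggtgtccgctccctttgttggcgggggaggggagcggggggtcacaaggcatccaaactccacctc

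Both strands of 250 bases before each start were searched for this hexamer and for the hexamer of other nuclear receptors, spelled AGGTCA. The first was in 1 of 6 member windows and in 16.1% of all 32851 windows. The second was in 0 of 6 member windows and in 14.0% of all windows. The 6 member windows belong to 4 genes, and some of those of Apoe overlap. A match describes letters and is not evidence of binding, and no match speaks only of these letters in this window.

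Apod encodes apolipoprotein D, a lipocalin that travels with high density lipoprotein and binds small lipids such as arachidonic acid. The Dex arrays read 12.21, 12.17 and 12.26, the TNF arrays 12.37, 12.48 and 12.39, and the CI arrays 12.52 and 12.36. The range over all 8 arrays was narrow, TNF lay inside CI, and all Dex arrays were lower than the rest. The mean lay lower in Dex than in CI by 0.22 ± 0.08 and higher in TNF than in Dex by 0.20 ± 0.07, under the size threshold in both. TNF and CI differed by -0.02 ± 0.08 (95% interval -0.19 to 0.15, limma adjusted p = 0.874). The sign of this value changed without CI replicate 1 (0.060) and after quantile normalization (0.036). The other Apod probe set lay between 6.54 and 6.83 on the 8 arrays, in the receptor range, and differed by 0.04 ± 0.09 between TNF and CI. The genes most like Apod were Ndc80 (r = 0.9629), Snx6 (r = 0.9626) and Pcdhb15 (r = 0.9576). The mean levels of Ndc80 (5.98, 5.92 and 5.63 in CI, TNF and Dex) and Pcdhb15 (6.98, 6.92 and 6.59) were in the receptor range.

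Pltp and Lrp1, the genes of the lipid transfer protein and the receptor, were the 2 of 6 genes that rose in TNF against CI, and 0 fell. Among all genes 8.22% were called in that comparison, 3.00% higher and 5.23% lower. Pltp was 11.28, 11.02 and 11.16 in TNF, 10.42 and 10.30 in CI, and 9.97, 9.71 and 9.91 in Dex. The 3 models did not overlap, in the order TNF, CI and Dex. Pltp was higher in TNF than in CI by 0.79 ± 0.10, or 1.73-fold (limma adjusted p = 0.000269).

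The mean of Pltp lay lower in Dex than in CI by 0.49 ± 0.10, just inside the size threshold, and higher in TNF than in Dex by 1.29 ± 0.09. The difference from CI passed 0.5 without CI replicate 2 (-0.55), Dex replicate 1 (-0.55) or Dex replicate 3 (-0.52), and with each array centred on its median (-0.52). The Pltp probe set used here is of a kind that can share probes with other transcripts. The other Pltp probe set gave the same order, with 10.67, 10.65 and 10.77 in TNF, 9.42 and 9.66 in CI, and 9.17, 9.30 and 9.07 in Dex. By it Pltp was higher in TNF than in CI by 1.15 ± 0.10 (limma adjusted p = 3.05e-05, over all probe sets).

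Lrp1 was 11.16, 11.16 and 11.38 in TNF, 10.54, 10.56 and 10.55 in Dex, and 10.33 and 10.19 in CI. Again the models did not overlap, but here CI was lowest and the Dex arrays lay within 0.02 of each other. Lrp1 was higher in TNF than in CI by 0.98 ± 0.09, or 1.97-fold (limma adjusted p = 2.39e-05). The mean lay higher in Dex than in CI by 0.29 ± 0.09 and higher in TNF than in Dex by 0.69 ± 0.08.

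The other Lrp1 probe set told Dex and TNF apart less well. It was 5.83, 6.32 and 6.76 in TNF, 6.02, 6.31 and 5.92 in Dex, and 5.04 and 4.74 in CI, all in the receptor range. By it Lrp1 was higher in TNF than in CI by 1.41 ± 0.22 (limma adjusted p = 0.00132, over all probe sets), and TNF and Dex differed by 0.22 ± 0.19. With the probe sets of a gene averaged, Lrp1 lay higher in Dex than in CI by 0.74, past the threshold, and in TNF than in Dex by 0.45, under it. The rise in TNF against CI was called in every setting tried except a size threshold of 1.

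**Figure D3:**
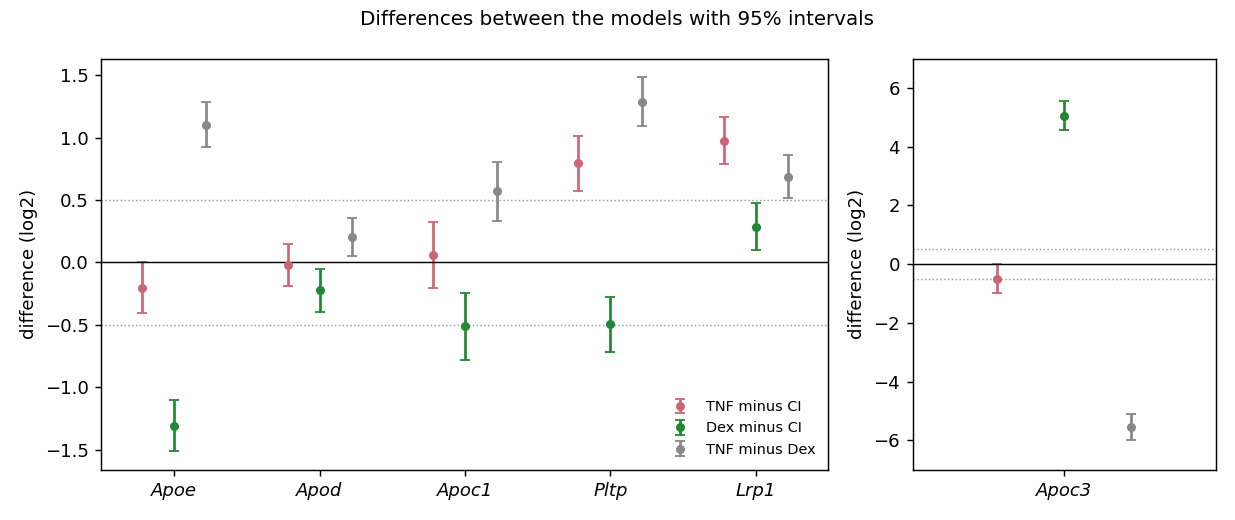
Difference between models on the log2 scale (vertical axis) with its 95% interval from the limma fit, for 5 genes (left) and for Apoc3 on its own scale (right); dotted lines mark the size threshold of 0.5. Pltp (0.79) and Lrp1 (0.98) exceeded it in TNF minus CI, and Apoe (-1.31) and Apoc1 (-0.51) in Dex minus CI. In the comparisons with Dex the intervals describe spread between arrays and are no test, because a Dex value chose the set. Those of Apoc3 also rest on CI and TNF levels in the receptor range.

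The windows before the start sites of the genes that rose together in TNF are Pltp, chr2:164857709-164857958, and Lrp1, chr10:127621149-127621398, both on the minus strand. They hold no capitals, since neither hexamer was found. Their GC contents were 57.6% and 67.2%.
Pltp: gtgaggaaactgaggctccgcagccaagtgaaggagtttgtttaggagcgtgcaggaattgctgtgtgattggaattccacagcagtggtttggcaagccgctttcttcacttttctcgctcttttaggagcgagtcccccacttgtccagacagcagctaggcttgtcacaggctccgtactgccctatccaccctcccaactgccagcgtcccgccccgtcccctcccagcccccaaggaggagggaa
Lrp1: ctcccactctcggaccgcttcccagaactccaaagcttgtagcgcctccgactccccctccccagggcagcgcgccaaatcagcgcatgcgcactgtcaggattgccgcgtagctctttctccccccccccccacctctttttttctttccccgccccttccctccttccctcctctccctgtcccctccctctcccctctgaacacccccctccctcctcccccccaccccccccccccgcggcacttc

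The genes closest to Pltp over the 8 arrays were Fscn1 (r = 0.9978), Zfp991 (r = 0.9965) and Pmp22 (r = 0.9964). Fscn1 encodes the actin-bundling protein fascin. Those closest to Lrp1 were Ecm1 (r = 0.9969), Pbxip1 (r = 0.9951) and Slc7a2 (r = 0.994). Ecm1 encodes a secreted matrix protein and Slc7a2 a transporter of basic amino acids. The mean levels of Slc7a2 in CI (6.27) and Dex (6.73) were in the receptor range.

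Macrophages and fibroblasts also make Pltp and Lrp1, so their markers were read beside these genes. The cultures were of a fibroblast line, so the macrophage markers describe those genes and do not show that macrophages were present. All 15 macrophage markers were measured, and 10 were at or under the receptor percentile on all 8 arrays, among them Adgre1, Ptprc, Itgam and Cd68. Their summed intensity was 4340 to 4585 in TNF against 3200 to 3226 in CI and 3127 to 3185 in Dex. Lyz2, the brightest of the 15, weighs most in these sums. In TNF against CI, Lyz2, a lysozyme gene, was called higher by 0.55 ± 0.07. Cd14, a co-receptor for bacterial lipopolysaccharide, was called higher by 1.44 ± 0.13. The other 13 were not called, among them Laptm5, which lay lower in TNF (-0.29 ± 0.10). Cd14 was also called higher in Dex than in CI, by 0.98 ± 0.13 (limma adjusted p = 0.000218). Of 10 preadipocyte and fibroblast markers 9 were measured, with sums of 50853 to 57406 in TNF, 47299 to 50160 in CI and 31349 to 35262 in Dex. The brightest markers dominate these sums as well. Pdgfrb and Acta2 were called higher in TNF than in CI, and the other 7 were not called. Among those 7, Thy1 (-0.29 ± 0.07), Col1a1 (-0.15 ± 0.11) and Col3a1 (-0.05 ± 0.10) lay lower in TNF than in CI. In TNF against Dex 6 of the 9 were called higher. The part of the preadipocyte and fibroblast markers in the levels of Pltp and Lrp1 was not tested. The beta-actin 3′ minus 5′ difference, a sign of RNA quality, was 0.76 ± 0.06 in TNF, 0.60 ± 0.09 in CI and 0.58 ± 0.15 in Dex (mean ± SD over 3, 2 and 3 arrays). With it as a covariate the differences between TNF and CI were 0.73 for Pltp and 0.91 for Lrp1, both still called.

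In the comparisons with Dex, 3 of the 6 genes lay past the thresholds against CI, where 9.00% of all genes did (3.33% higher and 5.67% lower). In TNF against Dex 5 of the 6 did, where 7.30% of all genes did (4.14% higher and 3.16% lower). These counts apply the thresholds of adjusted p and size as a description only. They include Apoc3, for which the set was chosen, and nothing is read from them. All 6 genes were without overlap between Dex and CI, as were 48.0% of all genes, and all 6 between TNF and Dex, as were 35.9%. The comparisons share arrays, so a low value in Dex enters both.

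The rest of lipoprotein handling was read from a list of 63 genes, of which 55 were measured and 14 were at or under the receptor percentile on all arrays. In TNF against CI 1 of the 55 rose and 6 fell, 12.7% called against 8.22% of all genes, with a median difference of -0.0095 against 0.027 over all genes. Clu, which encodes clusterin or apolipoprotein J, a chaperone on high density particles, was 11.63 to 11.91 in TNF against 9.88 and 9.96 in CI. It rose by 1.85 ± 0.09, or 3.61-fold (limma adjusted p = 3.88e-07).

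Of 7 lipases and their helpers measured, 1 was called in TNF against CI. Lmf1, which lipases need to mature, fell by 0.54 ± 0.09 (limma adjusted p = 0.00136), but it missed the size threshold without CI replicate 2 (-0.44) or TNF replicate 1 (-0.48), after quantile normalization (-0.46) and with its probe sets averaged (-0.19). Lpl, the lipase itself, was 14.26 and 14.28 in CI, 14.17 to 14.19 in TNF and 14.19 to 14.25 in Dex, near the top of the scale, where differences can be compressed. It differed by -0.09 ± 0.07 between TNF and CI (95% interval -0.24 to 0.06, limma adjusted p = 0.356). Gpihbp1, the anchor of the lipase on capillary walls, differed by 0.10 ± 0.07 (limma adjusted p = 0.341).

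Among 16 receptors and their regulators and 8 genes of lipid transfer and export, Mylip alone was called in TNF against CI. Mylip encodes the ubiquitin ligase that sends lipoprotein receptors to breakdown. It was 10.95 and 11.10 in CI, 10.18 to 10.24 in TNF and 9.27 to 9.51 in Dex, without overlap. It fell by 0.82 ± 0.09 in TNF against CI (limma adjusted p = 8.72e-05). The cholesterol exporter Abca1 differed by -0.11 ± 0.12 (limma adjusted p = 0.528), and by -0.38, with no call, when its probe sets were averaged.

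Of 12 known regulators of apolipoprotein genes measured, nuclear receptors and the forkhead factor Foxo1, 4 fell and none rose in TNF against CI, where 5.23% of all genes fell and 3.00% rose. Nr1h3, the oxysterol receptor LXR alpha, was 9.47 to 9.54 in TNF, 9.64 to 9.76 in Dex, and 10.26 and 10.35 in CI. It fell by 0.81 ± 0.07 (limma adjusted p = 2.96e-05). Its partner Rxrg fell by 0.85 ± 0.09 and the clock repressor Nr1d1 by 1.62 ± 0.23 (limma adjusted p = 7.04e-05 and 0.000597). Pparg, the receptor that drives fat cell formation, fell by 0.52 ± 0.08, which missed the threshold when any of 3 arrays was left out, TNF replicate 2 (-0.48), TNF replicate 3 (-0.49) and CI replicate 1 (-0.49), after quantile normalization (-0.47) and with the beta-actin covariate (-0.48).

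**Figure D4:**
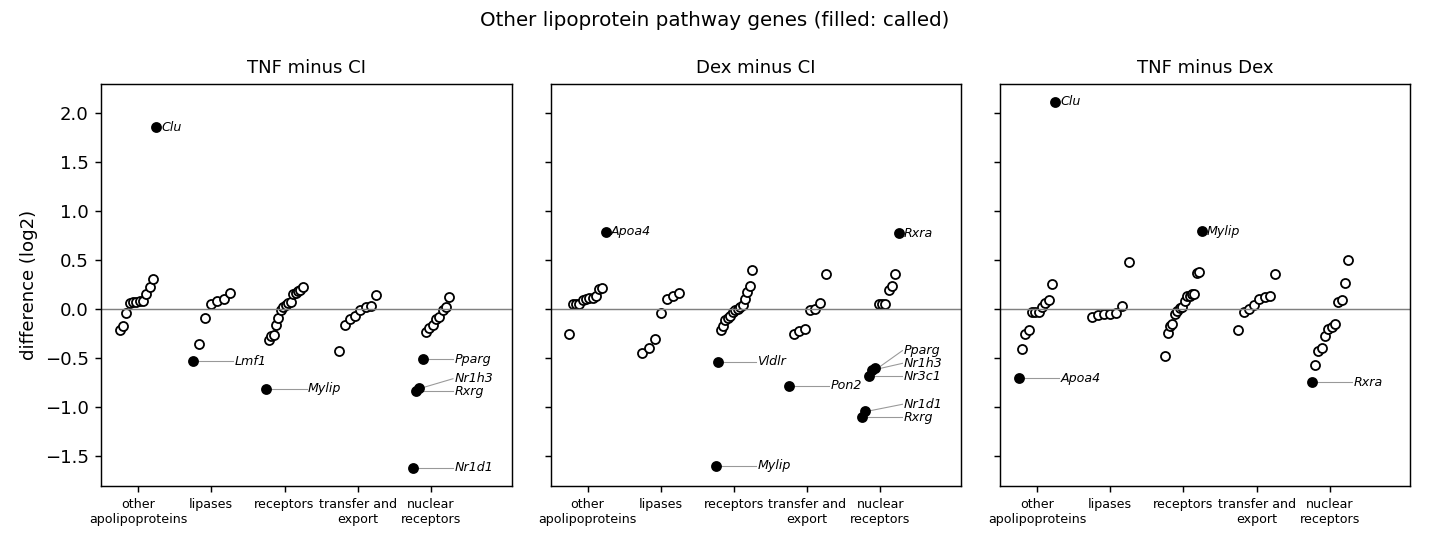
Difference on the log2 scale (vertical axis) of each of the 55 other lipoprotein genes measured, by role and in order of value within a role, in the 3 comparisons; filled dots with a name are genes that were called. Clu stands apart in TNF (1.85 against CI), Mylip is lowest among receptors and regulators in Dex (-1.61 against CI), and most of the genes lie near 0.

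In Dex against CI 2 of the 55 genes rose and 8 fell, 18.2% called against 9.00% of all genes, with a median of 0.038 against 0.020 over all genes. The genes that rose were Apoa4 and Rxra, the partner of many nuclear receptors. Rxra was 11.85 to 12.02 in Dex, 11.13 and 11.22 in CI and 11.14 to 11.23 in TNF, and rose by 0.77 ± 0.08 (limma adjusted p = 3.31e-05). Mylip fell by 1.61 ± 0.09, or 3.04-fold (limma adjusted p = 3.24e-07), Rxrg by 1.11 ± 0.09 and Nr1h3 by 0.62 ± 0.07. Nr3c1, the glucocorticoid receptor that binds dexamethasone, was 10.49 to 10.73 in Dex against 11.26 and 11.34 in CI. It fell by 0.69 ± 0.10 (limma adjusted p = 0.000409). With its probe sets averaged the difference was -0.501, barely past the size threshold.

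The other genes that fell were Pparg by 0.61 ± 0.08, Pon2, an intracellular paraoxonase, by 0.79 ± 0.09, Vldlr, a receptor for triglyceride-rich particles, by 0.54 ± 0.11, and Nr1d1 by 1.05 ± 0.23. Nr1d1 was not called without CI replicate 2 (-0.71, limma adjusted p = 0.11). Vldlr missed the threshold without CI replicate 1 (-0.48) or Dex replicate 2 (-0.45), after quantile normalization (-0.48) and with its probe sets averaged (-0.30), and Pon2 with its probe sets averaged (-0.38). Lpl differed by -0.05 ± 0.07 (95% interval -0.20 to 0.10), Gpihbp1 by 0.16 ± 0.07 (limma adjusted p = 0.127) and the exporter Abca1 by -0.23 ± 0.12 (limma adjusted p = 0.197).

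In TNF against Dex 2 of the 55 genes were higher and 2 lower, or 3 and 4 without Dex replicate 3, 7.27% called against 7.30% of all genes, with a median of -0.022 against 0.0067 over all genes. Clu was higher in TNF by 2.11 ± 0.08 (limma adjusted p = 1.78e-08) and Mylip by 0.79 ± 0.08 (limma adjusted p = 2.98e-05). Rxra was lower in TNF by 0.75 ± 0.07 (limma adjusted p = 1.67e-05), a difference of -0.49 and no call with its probe sets averaged, and Apoa4 was lower as given above. Nr3c1 was higher in TNF by 0.49 ± 0.09 and just missed the size threshold. It passed without TNF replicate 2 or Dex replicate 1 (0.56 and 0.55), after quantile normalization (0.54) and with the beta-actin covariate (0.56). With its probe sets averaged the difference was only 0.29.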

How the data were processed

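The authors deposited linear probe set intensities of 45101 probe sets for 8 arrays, made per the study's methods with RMA background correction and normalization in affyPLM. The sources used here do not say whether the logarithm of RMA values was undone. The deposited intensity values were taken to log2. The 64 control probe sets were left out, and genes were assigned by GEO's platform annotation (34958 with 1 symbol, 932 with several, 9211 with none). A gene was its probe set with the highest mean, which gave 18193 genes. Probe sets of a kind that can share probes with other transcripts include those of Pltp, Apoa1, Apoa4, Clu, Vldlr, Pon2 and Acta2. The models were fitted together with limma 3.58.1 in R 4.3.3 (lmFit and eBayes, two-sided, Benjamini-Hochberg over all genes, 5 residual degrees of freedom). Limma, the adjustment and both thresholds follow the study's methods, and the joint fit and the choice of probe set were made here. The fit was tested on simulated data. Precision is limited by how many arrays there are. Members, gene lists, tests and alternatives were chosen with earlier results of these data known. Named genes were the 6 members, up to 4 called genes of a role and comparison with the largest difference whose groups do not overlap, neighbours and fixed genes, and the 3 genes most correlated with each member. Pparg in Dex against CI was named after its values were seen. Alternatives covered scaling, an offset of 16, low genes, probe sets, replicate blocks, samples in the fit, eBayes settings, array weights, RNA quality, thresholds and each array left out. Sequences and positions come from RefSeq tables for GRCm38.p6. Figures were drawn with matplotlib 3.10.9.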

Additional observations from a re-analysis of the deposited data

How the results depend on the processing

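With the size threshold raised to 1, 0 of the 6 members were called in TNF against CI. In TNF against Dex, as a description, 3 lay past the thresholds, and the other lipoprotein genes called were 2 in TNF against CI, 3 in Dex against CI and 1 in TNF against Dex. Over all genes the calls in TNF against CI, Dex against CI and TNF against Dex were then 258, 423 and 342 in place of 1496, 1637 and 1328. With 1 array left out the members called in TNF against CI ran from 2 to 3, and those past the thresholds in the comparisons with Dex, a description only, from 3 to 3 and 4 to 5. The other lipoprotein genes called ran from 6 to 7, 9 to 10 and 4 to 7, and all genes called from 1237 to 1605, 1552 to 1795 and 1284 to 1420. Where leaving out an array leaves CI with 1 array, that array is assumed to vary like the other groups.

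Signs changed only in differences that were not called. Apod in TNF against CI became 0.036 after quantile normalization and 0.0097 with probe sets averaged, and with 1 array left out ran from -0.10 (without CI replicate 2) to 0.060 (without CI replicate 1). Apoc1 in TNF against CI ran from -0.049 (without CI replicate 1) to 0.17 (without CI replicate 2). Apoa1 in TNF against CI became 0.13 with probe sets averaged and 0.022 with the beta-actin covariate, Abca1 0.0064 without TNF replicate 2, and Apoa5 ran from -0.0065 (without TNF replicate 3) to 0.12 (without TNF replicate 1). In TNF against Dex, Abca1 became -0.18 with probe sets averaged, and Apoa5 0.0031 with array weights and from -0.11 (without TNF replicate 3) to 0.016 (without TNF replicate 1). The cause was not tested.

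The replicate number as a block gave 2, 3 and 5 members past the thresholds, and 1534, 1730 and 1339 genes over all. The numbers are not shown to pair the arrays, because deviations from the group mean correlated between same-numbered TNF and Dex arrays at 0.334, -0.0949 and 0.213, and 3 of 6 arrays were closest to their own number. Under the block the difference between Dex and CI was -0.44 for Apoc1, under 0.5 in size, and -0.51 for Pltp, over it. Pparg was not called between TNF and CI (-0.49).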
